A study of Mus musculus with 20 samples.

Results

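The response of the brain to the NHE1 null mutation was compared between the hippocampus and the cerebellum. The hippocampus is a forebrain structure of glutamatergic pyramidal and granule neurons known for its part in memory and in seizures. The cerebellum is a motor structure built on granule cells and Purkinje cells, and its damage is known to cause ataxia. Both regions also hold astrocytes, oligodendrocytes, microglia and vessels, and the choroid plexus lies beside each of them in the ventricles.

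The values came from 10 of the 20 arrays of the series, 5 titled hippocampus and 5 titled cerebellum. On each 2-channel mouse cDNA array one channel held amplified RNA from the named region of an NHE1 null mutant mouse, and wild-type RNA of that region, pooled over mice, filled the second channel. In each region 3 arrays, numbered 1 to 3, carried the null RNA in channel 1, and 2 arrays, numbered 1 and 2, were dye swaps with the null RNA in channel 2. The labels give neither the age, sex nor strain of the mice, and they do not say whether different numbers were different animals. The spread behind the p-values may therefore be technical in part, although the Y-linked gene described below differed between numbers. The wild-type pool of a region was shared by its arrays, and a deviation of that pool cannot be told apart from the response of the region.

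Each value below is a log ratio of null mutant over wild type, read as log2, with swapped arrays turned by -1 and arrays centred on their median. Arrays of one region and number were averaged, which left 3 replicates in each region. No source used here states the base of the log or which channel is the numerator, so the direction is only likely. With the numerator in the other channel all signs turn, those of the differences included. A response is the ratio fitted for a region with the orientation of the arrays as a term, and a difference is the hippocampal response minus the cerebellar response. Higher or lower in hippocampus than in cerebellum refers to these responses and not to levels of RNA. A feature, meaning a gene or a probe without a single gene name, was called at an adjusted p under 0.05 in limma's moderated test, adjusted over 8319 features by the Benjamini-Hochberg method. A ratio within a region holds no level, so the labelled tissues could not be checked against marker levels.

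One array stood apart before any comparison. The swapped cerebellum array of number 1 correlated at 0.995 over 6748 probes with the swapped brain stem-diencephalon array of number 2, while the next of 190 pairs of arrays reached 0.743. Of the differences between these copies, 82.1% lay within 0.001 of their median. The array had 6793 values, the fewest of the 20, against 9690 to 13963 on the other 9 arrays used here. Eif2s3y, which lies on the Y chromosome, also set it apart. Its ratio was 1.71 on this array, although the channel 1 cerebellum array of the same number had -0.77 and the hippocampus arrays of number 1 had -1.29 and -0.99. All arrays of numbers 2 and 3 lay between 1.02 and 1.59. The sign of Eif2s3y thus went with the number in both regions, apart from this array, and every difference was computed with and without it.

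The responses of the regions were alike in sign for nearly every feature called in one of them. They also correlated at 0.752 over all 8319 features, so the likeness was not particular to the calls. Both responses were fitted with a shared orientation term. Single arrays of different regions correlated at a median of 0.543 with the same orientation and 0.107 with opposite orientation. In hippocampus 55 features (0.661% of 8319) were called, 13 higher and 42 lower in the null mutants. The cerebellum had 255 calls (3.07%), 124 higher and 131 lower. Of the 55 hippocampal calls, 54 had the same sign in cerebellum and 39 (70.9%) were called there too. Of the 255 cerebellar calls, 247 had the same sign in hippocampus and the same 39 (15.3%) were called there. These 39 features were 6 that rose and 33 that fell in both regions, and their differences lay between -0.34 and 0.56 with none called. The cerebellar count depended on single arrays. Without the repeated array it was 48 (0.577%), and with 1 replicate of any region left out it lay between 20, without cerebellum 2, and 456, without hippocampus 1. The hippocampal count was 55 without the repeated array and lay between 13, without hippocampus 2, and 67 with 1 replicate left out.

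**Figure D1:**
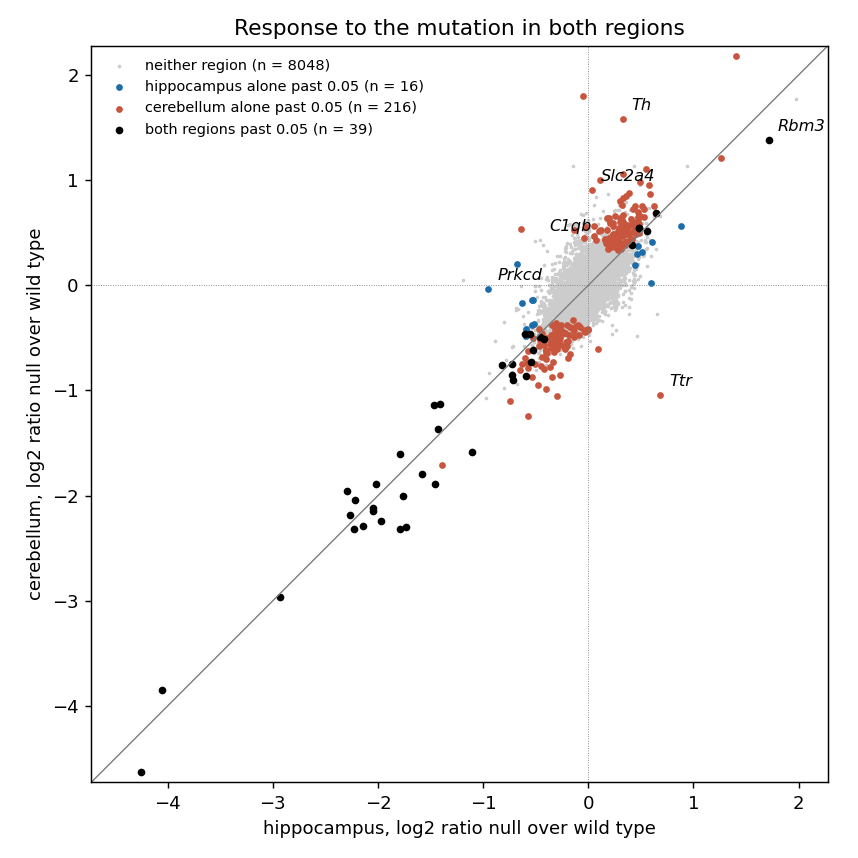
Response to the mutation of 8319 features, as log2 ratio of null over wild type, in hippocampus (horizontal axis) and cerebellum (vertical axis), with the line of equal response. Black points are the 39 features called in both regions and lie along the line, while Ttr, Th, C1qb, Prkcd and Slc2a4 lie away from it.

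For the difference itself, 0 of 8319 features (0%) were called in limma's test, and the lowest adjusted p was 0.070. At an unadjusted p under 0.05 there were 260 features (3.13%), 109 higher (1.31%) and 151 lower (1.82%) in hippocampus than in cerebellum. Without the repeated array 2 features (0.024%) were called, both lower in hippocampus and both probes without a gene name. The median standard error of a difference was 0.160 and the median half-width of its unadjusted 95% interval was 0.34. Differences much under that size were not detectable with 3 replicates in each region. Far larger ones could also be missed, since a call was adjusted over 8319 features. Even the highest and lowest differences, 1.73 and -1.85, were not called. Only 6 features had a difference beyond 1 in size. The replicates of the regions did not overlap for 765 features (9.2%), with hippocampus higher for 386 (4.64%) and lower for 379 (4.56%). Many genes described below were picked for separate replicates and a small p, so their separation adds no support.

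Averaged arrays of the same number deviated together in hippocampus and cerebellum. On single arrays of number 1, pairs across the regions correlated at 0.559 and 0.408 with the same orientation. With opposite orientation they had -0.209 and 0.033. For number 2 these values were 0.703 and 0.612, and 0.429 and 0.450. Number 3 had channel 1 arrays alone, so its shared deviation cannot be told apart from orientation. A fit with the number as a block called 5 features (0.0601%), 1 higher and 4 lower in hippocampus. They were Ttr, C1qb, Slc2a4 and the unnamed probes 6951 and 6396. Without the repeated array the same fit called 3 features (0.0361%), Slc2a4 and both probes, all 3 among those 5. With the block in a fit of these 2 regions alone, 0 features were called, and 15 when the repeated array was also left out. Within a region the block raised the counts to 327 in hippocampus and 877 in cerebellum, and the calls of single regions given below are those of the fit without it unless the block is named. Of the genes described below, it added Ttr, C1qb, Stmn1, Pde2a and Fosl2 in hippocampus (adjusted p 0.0267, 0.0167, 0.0268, 0.0297 and 0.0326). In cerebellum it added Fos, Mt2, Cst3, C1qa, Ppp3ca, Pecam1 and C1qc (adjusted p 0.00647, 0.00688, 0.0258, 0.0264, 0.0324, 0.0462 and 0.0499).

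Ttr encodes transthyretin, the thyroid hormone and retinol carrier that the choroid plexus secretes into the cerebrospinal fluid. Its ratio was 1.20, 0.22 and 0.98 on the channel 1 hippocampus arrays of numbers 1, 2 and 3, and 1.27 and 0.05 on the swapped arrays of numbers 1 and 2. In cerebellum it was 0.58, -2.67 and -0.23 on the channel 1 arrays of numbers 1, 2 and 3, and -2.72 on the repeated array and -0.40 on the swapped array of number 2. All hippocampus arrays lay above 0, and 4 of the 5 cerebellum arrays lay below it, a pair of them far below the others. The channel 1 array of cerebellum 1 was higher than both hippocampus arrays of number 2. The fitted response was 0.68 in hippocampus, which did not pass (adjusted p 0.159), and -1.05 in cerebellum (adjusted p 0.0216), a ratio 1.60-fold above and 2.07-fold below the wild-type pool. Their difference of 1.73 ± 0.28 (SE, 95% interval 1.12 to 2.34, n = 3 each) was 3.31-fold and the highest of all 8319, with a limma adjusted p of 0.0783.

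The Ttr difference was 1.35 ± 0.46 (SE) without the repeated array, with an adjusted p of 0.9998. With the number as a block it was 1.73 and called (limma adjusted p 0.00519), and 1.60 and not called (adjusted p 0.105) when the repeated array was also left out. The cerebellar response without that array was -0.74 (adjusted p 0.321). Ttr was 1 of 8 measured genes of a list of choroid plexus and meningeal markers. The other 7 had differences between -0.25 for Igf2, an insulin-like growth factor of the choroid plexus and meninges, and 0.39 for Lbp. The list split into 4 genes above and 4 below 0, with a median difference of -0.012, beside -0.0024 for all features. This median changed sign over the alternative settings, between -0.046 and 0.028. The list's median response, with Ttr included, was 0.12 in hippocampus and -0.065 in cerebellum. By replicate, its median lay between 0.019 and 0.099 in hippocampus and between -0.14 and -0.020 in cerebellum, without overlap. Without the repeated array the cerebellar range was -0.043 to -0.015.

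C1qa, C1qb and C1qc encode the A, B and C chains of complement C1q, which microglia make in the brain and which tags synapses and debris for removal. C1qb had ratios of -0.10, -0.49 and -0.51 on the channel 1 hippocampus arrays and -0.42 and -0.78 on the swapped ones. Its cerebellum ratios were 1.08, 0.36 and 0.27 on the channel 1 arrays and 0.16 on the repeated array, with no value on the swapped array of number 2. Every hippocampus array lay below 0 and every cerebellum array above it. The difference was -0.89 ± 0.15 (SE, 95% interval -1.22 to -0.56), or 1.86-fold, with a limma adjusted p of 0.0912. It was -1.01 without the repeated array (adjusted p 0.402) and -0.87 with the number as a block (called, adjusted p 0.0415). With the block and without the repeated array the adjusted p was 0.105.

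C1qa gave -0.51, -0.30 and -0.18 on the channel 1 hippocampus arrays and 0.0084 and -0.19 on the swapped ones. Its cerebellum values were 0.39 and 0.21 on the channel 1 arrays of numbers 2 and 3, 1.08 on the repeated array and 0.51 on the swapped array of number 2. The difference of -0.75 (95% interval -1.25 to -0.26) did not pass the test. It was -0.55 without the repeated array, which left cerebellum numbers 2 and 3 alone. C1qc showed a smaller gap with overlapping replicates, 0.11 in hippocampus and 0.38 in cerebellum, and its difference of -0.27 had a 95% interval of -0.64 to 0.092.

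The promoters of C1qb and C1qc are shown because the C1q chains lay in the same direction between the regions. That of C1qa is not shown, since the promoter reference used here held no entry for it. Each sequence is the 250 bases before the annotated start, from RefSeq on GRCm38.p6 and 5′ to 3′ on the gene's strand, chr4:136886201-136886450 for C1qb and chr4:136892915-136893164 for C1qc, both on the minus strand. Capitals mark GAGGAA or its complement TTCCTC, a core of sites for ETS family factors such as PU.1, a regulator of microglia.
C1qb: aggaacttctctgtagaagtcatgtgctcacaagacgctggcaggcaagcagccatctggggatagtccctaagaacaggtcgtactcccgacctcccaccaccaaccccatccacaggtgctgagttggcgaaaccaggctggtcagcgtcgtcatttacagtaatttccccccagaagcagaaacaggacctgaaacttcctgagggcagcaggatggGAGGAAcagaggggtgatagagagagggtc
C1qc: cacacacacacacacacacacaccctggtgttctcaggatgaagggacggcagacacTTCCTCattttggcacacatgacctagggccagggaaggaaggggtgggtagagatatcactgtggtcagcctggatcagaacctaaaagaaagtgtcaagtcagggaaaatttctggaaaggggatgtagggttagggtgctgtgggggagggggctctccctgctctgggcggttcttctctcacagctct
Each held 1 match, and 23.3% of 32851 mouse promoters of this length held at least 1 on either strand. A match is a description and not evidence of a bound site.

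The 3 chains belong to a list of 10 measured microglial and immune markers, and all 10 had a difference below 0, with a median of -0.41. Over all features 4216 of 8319 lay below 0. The list's median response was -0.083 in hippocampus and 0.35 in cerebellum. By replicate, its median lay between -0.24 and 0.014 in hippocampus and between 0.23 and 0.49 in cerebellum, without overlap, and without the repeated array the cerebellar range was 0.23 to 0.47. Besides the C1q chains, the lysosomal proteases cathepsin D (Ctsd) and cathepsin B (Ctsb) had differences of -0.49 (95% interval -0.87 to -0.11) and -0.33 (-0.60 to -0.065). Replicates did not overlap for 5 of the 10 genes, all lower in hippocampus, beside 4.56% of all features. Without the block 0 of the 10 were called by limma for the difference or in either region, with 5 at an unadjusted p under 0.05 for the difference. In whole tissue, fewer cells of a type and less RNA per cell cannot be told apart.

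Markers of astrocytes lay in the same direction. Of 12 measured genes 10 had a difference below 0, with a median of -0.24. By limma 0 were called for the difference and 4 had an unadjusted p under 0.05. The replicate medians of this list lay between -0.14 and 0.083 in hippocampus and between 0.13 and 0.29 in cerebellum. Cst3, which encodes the cysteine protease inhibitor cystatin C, had replicate means of -0.084, -0.23 and -0.12 in hippocampus and 0.49, 0.43 and 0.23 in cerebellum. No hippocampus array of Cst3 reached 0 and all cerebellum arrays exceeded it. Its difference was -0.53 ± 0.13 (SE, 95% interval -0.81 to -0.24, limma adjusted p 0.999) and -0.56 without the repeated array. The metallothioneins Mt1 and Mt2, metal-binding proteins that glia induce under stress, differed by -0.54 (95% interval -0.96 to -0.12) and -0.74 (-1.41 to -0.079). The astrocyte gene Ndrg2 differed by -0.31 (-0.58 to -0.033). Markers of oligodendrocytes had 4 of 5 genes below 0 with a median of -0.14, and markers of vessels and blood had 6 of 7 below 0 with a median of -0.15. In these vessel markers Pecam1, an endothelial adhesion molecule, fell in hippocampus (-0.53, adjusted p 0.0282) beside -0.38 in cerebellum (adjusted p 0.0795), a difference of -0.15 (95% interval -0.45 to 0.14). Whether glial, vascular and microglial markers contributed to the differences of other genes was not tested.

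**Figure D2:**
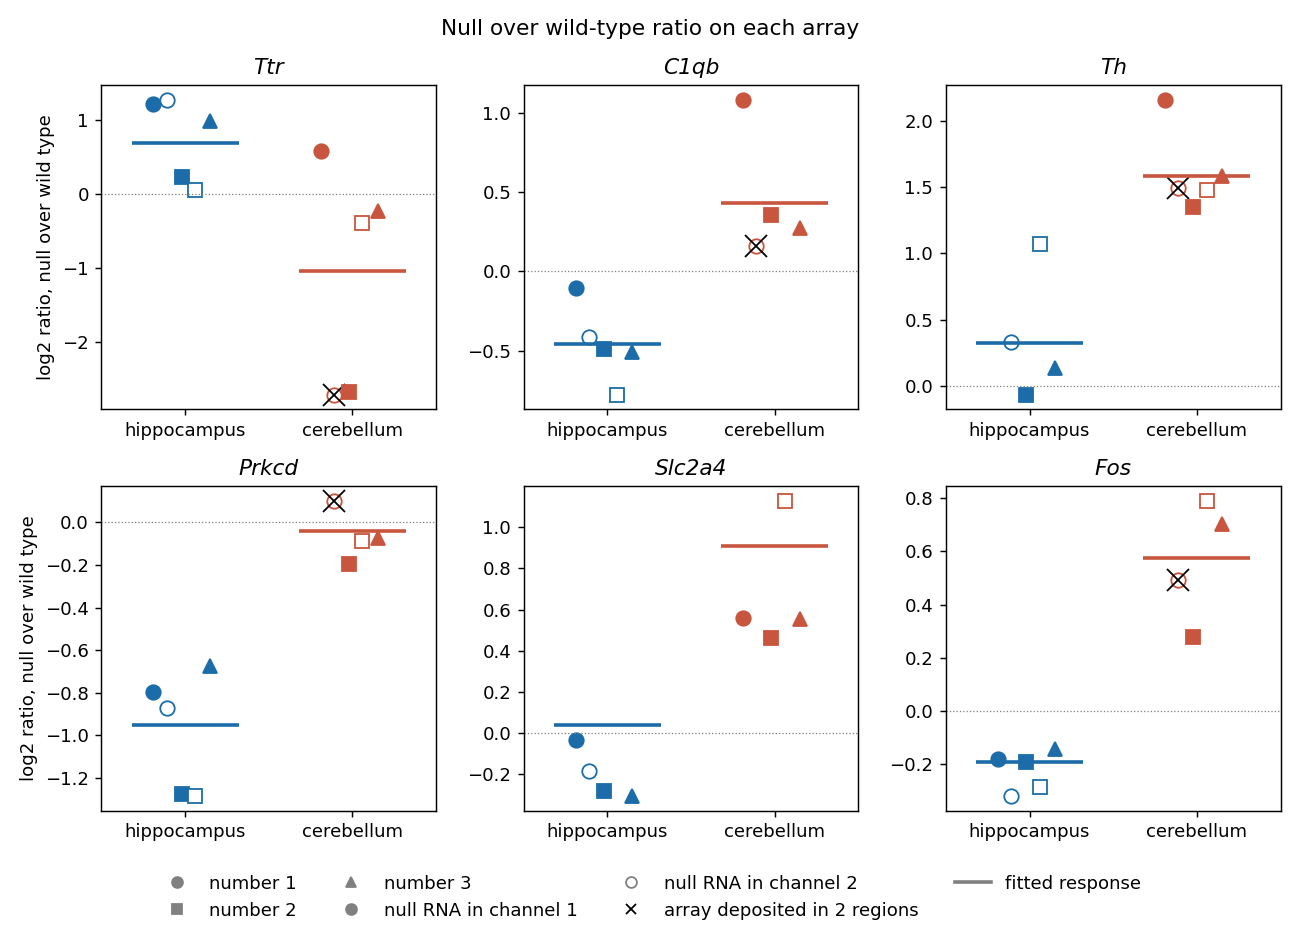
Log2 ratio of null over wild type on each array for Ttr, C1qb, Th, Prkcd, Slc2a4 and Fos, with hippocampus on the left and cerebellum on the right of each panel. Shapes give the number, open points the swapped arrays, the cross the array deposited in 2 regions and bars the fitted response. The regions overlap on single arrays for Ttr and not for the other 5 genes.

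Th encodes tyrosine hydroxylase, the rate-limiting enzyme of catecholamine synthesis, which in the cerebellum is known from Purkinje cells and from incoming noradrenergic fibres. In hippocampus its ratio was -0.063 and 0.14 on the channel 1 arrays of numbers 2 and 3 and 0.33 and 1.07 on the swapped arrays of numbers 1 and 2. In cerebellum it was 2.16, 1.35 and 1.58 on the channel 1 arrays, 1.49 on the repeated array and 1.47 on the swapped array of number 2. All 5 cerebellum arrays lay above all 4 hippocampus arrays. The response was 0.33 in hippocampus (adjusted p 0.453), and Th rose in cerebellum by 1.58 (adjusted p 0.000935). The difference of -1.26 ± 0.27 (SE, 95% interval -1.83 to -0.68) was 2.39-fold, with a limma adjusted p of 0.352. Without the repeated array it was -1.28 (adjusted p 0.176), with the block -1.16 (adjusted p 0.332), and with the block and without that array -1.14 (adjusted p 0.0588). The other 2 measured genes of the catecholamine list also lay below 0, at -0.12 and -0.063.

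Fos encodes a subunit of the AP-1 transcription factor and is induced within minutes of neuronal activity. Its ratio was -0.18, -0.19 and -0.14 on the channel 1 hippocampus arrays and -0.32 and -0.29 on the swapped ones. Cerebellum arrays gave 0.28 and 0.70 in channel 1 for numbers 2 and 3, 0.49 on the repeated array and 0.79 on the swapped array of number 2. All hippocampus arrays were below 0 and all cerebellum arrays above it. The difference was -0.77 ± 0.23 (SE, 95% interval -1.26 to -0.27, limma adjusted p 0.999). It was -0.84 without the repeated array, which left cerebellum numbers 2 and 3 alone. Of 8 immediate early genes measured, 7 had a difference below 0, with a median of -0.17, and 0 were called by limma, with Fos alone at an unadjusted p under 0.05. Jun, the partner of Fos in AP-1, differed by -0.40 (95% interval -0.81 to 0.016), Ier5 by -0.33 (-0.78 to 0.12) and Fosl2, a Fos family member, by -0.21 (-0.47 to 0.050).

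The promoters of Th and Fos are shown because both genes are known targets of cAMP signalling. They are the 250 bases before the start from RefSeq on GRCm38.p6, chr7:142899996-142900245 on the minus strand for Th and chr12:85473640-85473889 on the plus strand for Fos. Capitals mark TGACGT or its complement ACGTCA, the core of the cAMP response element.
Th: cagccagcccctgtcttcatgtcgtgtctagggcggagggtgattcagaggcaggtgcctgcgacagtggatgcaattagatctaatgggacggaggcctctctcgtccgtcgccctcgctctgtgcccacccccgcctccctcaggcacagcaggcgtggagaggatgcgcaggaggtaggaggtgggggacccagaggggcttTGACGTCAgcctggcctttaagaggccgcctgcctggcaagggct
Fos: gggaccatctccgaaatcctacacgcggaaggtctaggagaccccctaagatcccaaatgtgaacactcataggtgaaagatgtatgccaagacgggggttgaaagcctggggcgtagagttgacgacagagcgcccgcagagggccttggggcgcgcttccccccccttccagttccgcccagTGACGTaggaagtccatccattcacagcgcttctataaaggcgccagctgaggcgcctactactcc
Th held 2 overlapping matches, one on each strand, and Fos held 1. Of 32851 promoters, 6.47% held a match. No binding was measured in these samples.

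Prkcd fell in hippocampus and stayed near 0 in cerebellum. It encodes protein kinase C delta, which is strong in thalamic neurons of the mouse brain. Its ratio was -0.80, -1.28 and -0.68 on the channel 1 hippocampus arrays and -0.87 and -1.29 on the swapped ones. Cerebellum arrays gave -0.20 and -0.074 in channel 1 for numbers 2 and 3, 0.10 on the repeated array and -0.088 on the swapped array of number 2. Each hippocampus array lay below each cerebellum array. The response was -0.95 in hippocampus (1.93-fold lower, adjusted p 0.00218) and -0.038 in cerebellum (adjusted p 0.887). Their difference was -0.91 ± 0.18 (SE, 95% interval -1.30 to -0.53, limma adjusted p 0.200). It was -0.80 without the repeated array, which left cerebellum numbers 2 and 3 alone. Ppp1r1b, which encodes the dopamine-regulated phosphatase inhibitor DARPP-32, had the same pattern. It fell in hippocampus, at -0.63 (adjusted p 0.0343), beside -0.17 in cerebellum (adjusted p 0.481), a difference of -0.46 (95% interval -0.83 to -0.089). Ppp3ca, the catalytic subunit of calcineurin, rose in hippocampus by 0.61 (adjusted p 0.0155) and had 0.41 in cerebellum (adjusted p 0.0510), a difference of 0.20 (95% interval -0.11 to 0.51). These 3 genes belong to a list of 17 measured kinase and phosphatase genes. Of that list 11 had a difference above 0, with a median of 0.075. Prkcd and Ppp1r1b are also on a list of dopamine and striatal markers, with 4 of 5 measured genes below 0 and a median of -0.46. That median is the value of Ppp1r1b itself, so the list adds no separate support. Of its other genes, Rora differed by -0.42 (95% interval -1.10 to 0.26). Plekhg1 differed by -0.46 (-1.65 to 0.73), and by 0.071 without the repeated array. The highest value of the list was 0.088.

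Slc2a4 encodes GLUT4, the insulin-responsive glucose transporter, which cerebellar and hippocampal neurons carry. Its ratio was -0.034, -0.28 and -0.30 on the channel 1 hippocampus arrays and -0.18 on the swapped array of number 1. In cerebellum it was 0.56, 0.46 and 0.55 on the channel 1 arrays and 1.13 on the swapped array of number 2, and the repeated array had no value. Hippocampus arrays were all below 0 and cerebellum arrays all above it. The fitted response was 0.039 in hippocampus and 0.91 in cerebellum (adjusted p 0.0349, and 0.0713 without the repeated array). Through the orientation term each fitted response lay above all replicate means of its region. The difference was -0.87 ± 0.26 (SE, 95% interval -1.43 to -0.31, limma adjusted p 0.999), or 1.83-fold. With the number as a block its size was the same, with a standard error of 0.12, and it was called (adjusted p 0.0400, and 0.0381 without the repeated array).

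Stmn1, which encodes the microtubule-destabilizing protein stathmin, had replicate means of -0.12, -0.63 and -0.66 in hippocampus and 0.68, 0.32 and 0.47 in cerebellum. The groups did not overlap, as the rule that named the gene required, and the difference was -0.93 (95% interval -1.44 to -0.42, limma adjusted p 0.999). With the block its adjusted p was 0.0606, and 0.0588 without the repeated array. The remaining 7 of the 15 genes with the smallest p among those lower in hippocampus with separate replicates had gaps of -0.72 to -0.36. They were Zfp462, a zinc finger gene, Tekt2, a tektin of ciliary microtubules, Pde2a, a cyclic nucleotide phosphodiesterase, Pck2, the mitochondrial phosphoenolpyruvate carboxykinase, Lmbrd1, of lysosomal cobalamin export, Tango2 and the deubiquitinase gene Mindy1. In hippocampus Tekt2, Lmbrd1 and Mindy1 had -0.14, -0.037 and 0.074, and in cerebellum they rose by 0.53, 0.45 and 0.43 (adjusted p 0.0458, 0.0418 and 0.0175). In the fit without the repeated array these cerebellar responses had adjusted p of 0.0961, 0.0713 and 0.114. Dlg2, which encodes the postsynaptic scaffold PSD-93, differed by -0.58 (95% interval -0.99 to -0.17), and all 6 measured genes of glutamate signalling had a difference below 0, with a median of -0.16. By limma 0 of these 6 were called, and Dlg2 alone had an unadjusted p under 0.05. Glul and Slc1a3 of this list are also on the astrocyte list, and Nsf is also on that of the synaptic vesicle cycle.

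Among genes with a higher response in hippocampus than in cerebellum, gaps other than that of Ttr were smaller. B3gnt2, which encodes an enzyme of polylactosamine synthesis, had replicate means of 0.23, 0.30 and 0.16 in hippocampus and -0.76, -0.19 and -0.24 in cerebellum. These means did not overlap, as the rule that named the gene required, and the difference was 0.60 (95% interval 0.26 to 0.95). A second B3gnt2 probe, left out by the filter, differed by 0.11. Trmt6, a subunit of a tRNA methyltransferase, had 0.32, 0.19 and 0.25 in hippocampus and -0.17, -0.20 and -0.24 in cerebellum, a difference of 0.45 (0.15 to 0.75). A second Trmt6 probe, left out by the filter and with values on 2 cerebellum arrays, differed by -0.010. Entr1, an endosomal gene, differed by 0.75 (0.17 to 1.33) from 2 hippocampal replicates. Its response was -0.30 in hippocampus, and it fell in cerebellum by 1.05 (adjusted p 0.0122, and 0.123 without the repeated array).

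A further 11 genes by the same rule differed by 0.35 to 0.48. They were Psmb5, Oog3, Znhit2, Manf, Nup43, Dipk2a, Ets2, Slc35b1, Ap1m1, Tshz2 and Zfp592. Further probes of Zfp592, Nup43 and Tshz2, left out by the filter, differed by -0.011, 0.15 and 0.42. Manf encodes a secreted factor induced by stress of the endoplasmic reticulum, Nup43 a nucleoporin, Ap1m1 a clathrin adaptor subunit and Ets2 a transcription factor. Oog3, Nup43, Slc35b1, Ets2 and Dipk2a fell in cerebellum, with responses of -0.95, -0.43, -0.42, -0.41 and -0.44, and of these Oog3 passed without the repeated array (-0.86, adjusted p 0.0287).

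**Figure D3:**
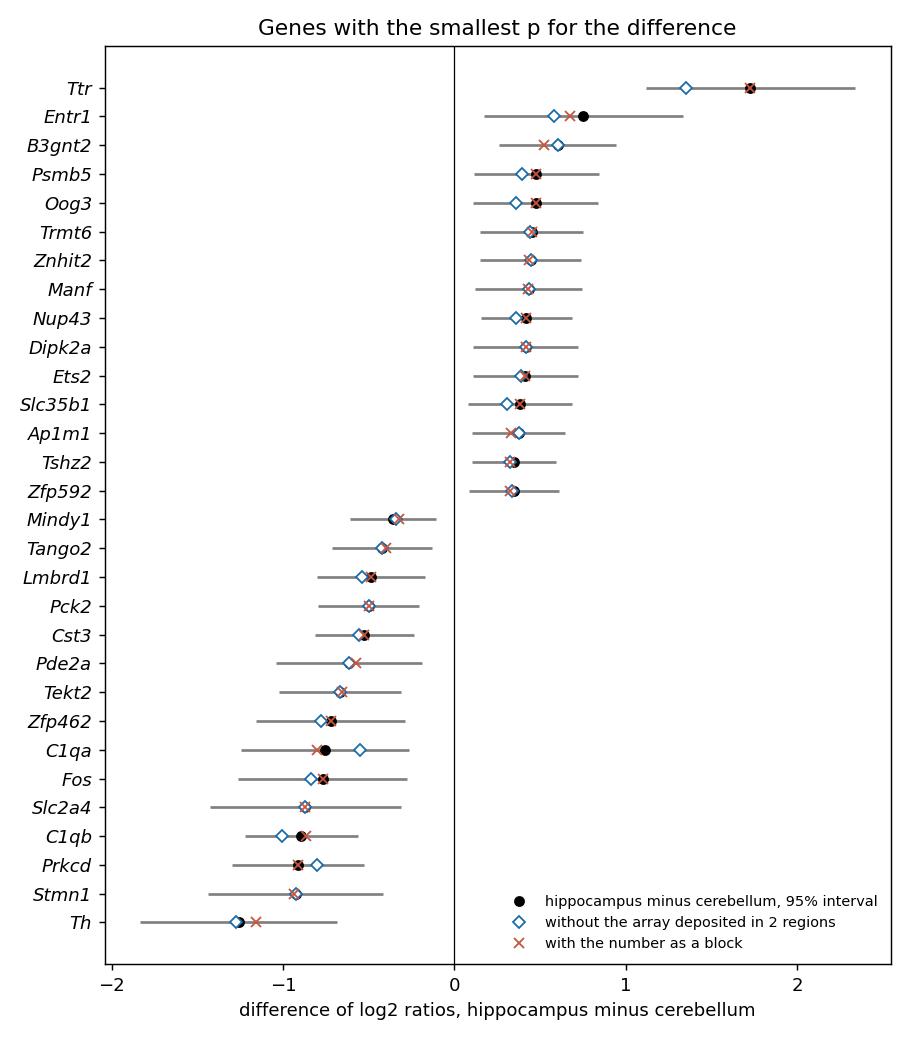
Difference of log2 ratios, hippocampus minus cerebellum, for the 15 genes in each direction with the smallest p among genes whose replicates did not overlap. Black points carry 95% intervals, open diamonds leave out the array deposited in 2 regions and crosses hold the number as a block. Ttr stands at 1.73 and Th at -1.26, and the 3 estimates of a gene lie on one side of 0.

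Oxidative phosphorylation is the mitochondrial chain that makes ATP. The response of its subunits was higher in hippocampus than in cerebellum for 45 of 50 measured genes, with a median difference of 0.20. Over all features 4103 of 8319 lay above 0. The list's median response was 0.065 in hippocampus and -0.15 in cerebellum. By replicate the median lay between 0.011 and 0.15 in hippocampus and between -0.15 and -0.047 in cerebellum, and without the repeated array the cerebellar range was -0.15 to -0.045. Replicates did not overlap for 10 of the 50 genes, all higher in hippocampus, beside 4.64% of all features. At an unadjusted p under 0.05 there were 6, and 0 were called.

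All complexes of the chain lay on the same side. Complex I, the NADH dehydrogenase, had 16 of 19 subunits above 0 with a median of 0.23. Complex III with cytochrome c had 6 of 7 (median 0.22), complex IV, cytochrome c oxidase, 7 of 7 (median 0.19) and ATP synthase 14 of 14 (median 0.19). Complex II had 2 of 3. The largest difference belonged to Cox8a, a subunit of complex IV, at 0.58 (95% interval 0.089 to 1.07). Its replicate means were 0.052, -0.62 and -0.20 in hippocampus and -0.86, -0.82 and -0.82 in cerebellum, and it fell in cerebellum (-0.85, adjusted p 0.0207), though not without the repeated array (-0.70, adjusted p 0.0945). The complex I subunits Ndufc1, Ndufc2 and Ndufa13 differed by 0.41, 0.38 and 0.30. In all 31 alternative settings with a value the list's median stayed above 0, between 0.15 and 0.23, and that of the microglial list stayed below it, between -0.45 and -0.32.

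Proteasome genes, which degrade ubiquitin-tagged proteins, lay above 0 for 28 of 38 with a median difference of 0.11. The list's median response was 0.18 in hippocampus and 0.039 in cerebellum, and its replicate medians, 0.11 to 0.29 in hippocampus and 0.0070 to 0.14 in cerebellum, overlapped. Core 20S subunits had 11 of 15 above 0 (median 0.14) and the 19S regulator 13 of 17 (median 0.10). Psmb5, the chymotrypsin-like catalytic subunit, differed by 0.48 (95% interval 0.12 to 0.84), and the core subunits Psmb3 and Psmb7 by 0.54 and 0.34. The Psmb3 value was 0.15 without hippocampus 3 and 0.80 without hippocampus 2. Psme3, an activator subunit, went the other way at -0.36 (95% interval -0.73 to 0.012). By limma 0 of the 38 were called and 3 had an unadjusted p under 0.05, and replicates did not overlap for 5 that were higher (4.64% of all features) and 1 that was lower in hippocampus (4.56%).

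Cytosolic ribosomal proteins were near balance. Of 66 measured, 37 lay above 0 and 29 below, with a median difference of 0.025 (-0.015 without cerebellum 3), and both regions had a median response above 0, at 0.16 in hippocampus and 0.15 in cerebellum. Chaperones and genes of the endoplasmic reticulum stress response lay above 0 for 28 of 40 with a median of 0.061. Hspe1, the mitochondrial co-chaperonin, differed by 0.35 (95% interval 0.043 to 0.66). Subunits of the vacuolar proton ATPase, which acidifies vesicles and lysosomes, lay above 0 for 7 of 9 with a median of 0.072. Its subunit gene Atp6v1d differed by 0.38 (95% interval -0.050 to 0.81), and by 0.10 without hippocampus 2. Of 11 measured acid-base genes 5 lay above 0. Car7, a cytosolic carbonic anhydrase of neurons, had -0.42 in hippocampus (adjusted p 0.153) and fell in cerebellum by 0.79 (adjusted p 0.00478). Its difference of 0.38 (95% interval 0.036 to 0.72) was 0.27 without the repeated array.

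Genes of the synaptic vesicle cycle lay above 0 for 8 of 10 with a median of 0.10. Markers of hippocampal neurons had 4 of 6 above 0 with a median of 0.034, and markers of cerebellar neurons 5 of 8 with a median of 0.075. Over the alternative settings these medians changed sign, from -0.013 (without cerebellum 3) to 0.094 for the hippocampal and from -0.038 to 0.17 for the cerebellar list. Nfia, a nuclear factor I gene of granule neurons, had -0.21 in hippocampus and fell in cerebellum by 0.54 (adjusted p 0.0131, and 0.0696 without the repeated array), a difference of 0.33 (95% interval 0.058 to 0.61). A second Nfia probe, left out by the filter, had values on 3 hippocampus and 2 cerebellum arrays. Its responses were above 0, at 0.92 in hippocampus and 0.40 in cerebellum, a difference of 0.52. By limma 0 genes of either neuronal list were called for the difference, and Nfia alone had an unadjusted p under 0.05.

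**Figure D4:**
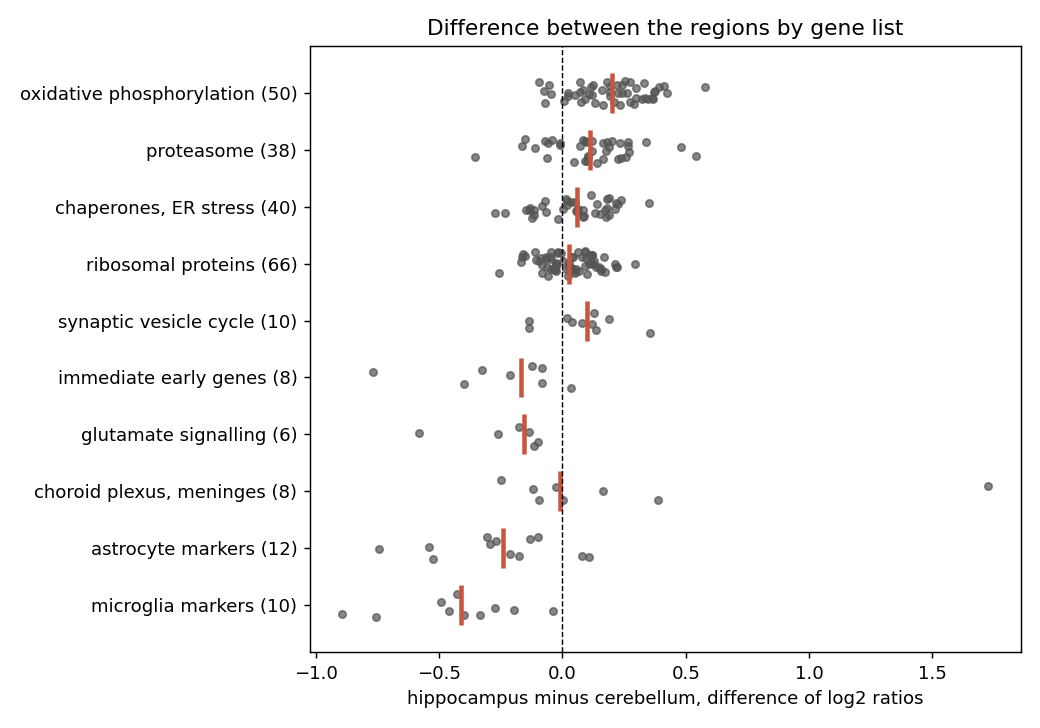
Difference of log2 ratios, hippocampus minus cerebellum, for each measured gene (grey points) of 10 lists, with the number of genes in brackets and the list's median as a red bar. The dashed line is the median of all features. Oxidative phosphorylation lies mostly right of it, with a median of 0.20, and microglia markers wholly left of it, with a median of -0.41.

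The cold-inducible RNA-binding proteins rose in both regions. Rbm3 had ratios of 1.57, 2.01 and 1.72 on the channel 1 hippocampus arrays and 1.27 and 2.08 on the swapped ones. Cerebellum arrays gave 0.86, 1.69 and 1.46 in channel 1, 1.11 on the repeated array and 1.81 on the swapped array of number 2. The replicates overlapped, and numbers 1 were the lowest of both regions. The response was 1.72 (adjusted p 9.8e-05) in hippocampus and 1.38 (adjusted p 0.00086) in cerebellum, and the difference of 0.33 (95% interval -0.11 to 0.78) did not pass. Cirbp rose by 0.48 in hippocampus and 0.55 in cerebellum, a difference of -0.064 (95% interval -0.34 to 0.21) that turned to 0.015 without the repeated array. Without that array the cerebellar rise of Cirbp had an adjusted p of 0.0730.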

How the data were processed

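Per the labels, 2-channel cDNA arrays compared amplified RNA of NHE1 null mutant brain regions with pooled wild-type RNA. The authors deposited 1 log ratio per probe and array, read here as log2. Their background correction, normalization and base of the log are stated in no source used here. Empty cells were left empty. Precision is limited by how few arrays there are. Arrays were centred on the median, swapped arrays were turned by -1, and arrays of one region and number were averaged. A probe needed values on at least 3 arrays of every region. Of 15245 probes 9701 were kept and averaged to 8319 features, 5255 of them genes. Of all probes 9604 had 1 gene symbol, 213 had several and 5428 had none, and 9496 symbols were updated by RefSeq tables.

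The model, fitted to 13 replicates of 4 regions, held region and array orientation, with variances moderated by limma 3.58.1 under R 4.3.3 (degrees of freedom 6.04 prior and 8 residual) and p-values adjusted by Benjamini-Hochberg. The other regions entered to share the estimate of the spread. Both copies of the repeated array entered this fit as if independent, under cerebellum 1 and brain stem-diencephalon 2. Fits without the repeated array left out both copies. The fit was tested on simulated data. The labels give the regions shared numbers. Deviations from region means correlated between hippocampus and cerebellum at 0.340, 0.371 and 0.378 for numbers 1, 2 and 3. Without the repeated array these values were 0.534, 0.514 and 0.401. They also hold the orientation of the arrays, which for number 3 cannot be told apart from the number. Pairing by number entered as a block in alternatives alone, and the fit reported treated the replicates as independent. Alternatives covered the repeated array, the samples fitted, filters, scaling, the orientation term, the replicate block and single replicates left out. The members, gene lists and tests were chosen with earlier results of these data known. Named genes were those called, the 15 in each direction with the smallest p among genes with separate replicates, up to 8 called in one region with the opposite sign in the other, up to 4 of each list by p, and 11 set genes, of which a gene is not reported here. RIKEN clones and unnamed probes were counted and not named, apart from probes 6396 and 6951, which were called.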

Additional observations from a re-analysis of the deposited data

Results flagged for a closer look

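Differences of 5 features between the regions passed limma's test of the difference without the repeated array or with the number as a block. In the fit reported, with all arrays and without the block, 0 passed. The difference was 1.73 for Ttr, -0.89 for C1qb and -0.87 for Slc2a4, whose values on each array are given above.

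Probe 6396, which has no gene name in the tables used here, differed by -1.85 (95% interval -2.44 to -1.26, adjusted p 0.070), the lowest value of all 8319 features. Its ratio was 0.038, 0.078 and -0.052 on the channel 1 hippocampus arrays and -0.19 on both swapped ones. Cerebellum arrays gave 1.71 and 2.25 in channel 1 for numbers 1 and 2, 1.63 on the repeated array and 1.62 on the swapped array of number 2, with no value for number 3. Without the repeated array the difference was -1.88 (adjusted p 0.00170), and with the block -1.75 (adjusted p 0.0400).

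Probe 6951, also unnamed, differed by -1.17 (95% interval -1.55 to -0.79, adjusted p 0.070). Hippocampus arrays gave -0.41, -0.67 and -0.83 in channel 1 and -0.42 on the swapped array of number 1. Cerebellum arrays gave 0.77, 0.54 and 0.57 in channel 1, 0.22 on the repeated array and 0.53 on the swapped array of number 2. Every hippocampus array lay below 0 and every cerebellum array above it. The difference was -1.26 without the repeated array (adjusted p 0.0191) and -1.25 with the block (adjusted p 0.0136).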

How the results depend on the processing

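Of 32 settings, 16 gave 0 features called for the difference, as in the fit reported. With 1 replicate of any region left out the count was 0 to 2, and it was 0 for each hippocampal or cerebellar replicate. It was 2 without the repeated array, without its cerebellum copy alone and without the orientation term, 4 with arrays scaled to one spread, and 1 without the channel 1 arrays of number 1 or without number 1 in every region. A fit of both regions alone gave 1, and 2 without the repeated array. The replicate block gave 5 and, without the repeated array, 3. In fits chosen after seeing the data it gave 8 with scaling, 0 in both regions alone, and 15 there without the repeated array. Fos, Th and Zfp462 were called in that last fit alone, all lower in hippocampus.

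Hippocampal and cerebellar calls moved more. In the order hippocampus, then cerebellum, they were 21 and 108 in both regions alone, 7 and 6 there without the repeated array, 14 and 28 with a variance trend, 176 and 1026 without the channel 1 arrays of number 1, and 428 and 557 without number 1. With the block they were 327 and 877, 542 and 358 without the repeated array, 256 and 939 in both regions alone, 428 and 72 there without it, and 437 and 714 with scaling. Complete features gave 29 in hippocampus, and in cerebellum scaling gave 142, no repeated array 48 and no cerebellum copy 46. With 1 replicate left out they ranged from 13 to 67 in hippocampus and from 20 to 456 in cerebellum. The cause of these shifts was not tested. Among the named differences followed over the settings, Cirbp changed sign (0.015 without the repeated array and 0.012 without its cerebellum copy). Eif2s3y did so too (0.12 without hippocampus 1, against -1.20 without hippocampus 3). Other named genes were not followed over every setting. Among them, leaving out the repeated array turned Plekhg1 from -0.46 to 0.071 and Slc16a3 from 0.20 to -0.011. It also turned Kcnd3 from -0.012 to 0.13 and Dkk3 from -0.058 to 0.00054.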
